A study of Mus musculus with 12 samples.

Results

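Collagens and laminins are the proteins from which much of the extracellular matrix is built, and their genes were followed here in CT26, a mouse colon carcinoma line, by RNA sequencing. Members were all rows of the gene table whose symbol is COL, a number, A and a number, or LAM, a chain letter from A to C and a digit. This gave 55 of the 23636 symbols, 44 collagens and 11 laminins, and 24 of these (16 collagens and 8 laminins) had a mean that reached 0.2 TPM and are described. TPM is a length-scaled transcript level that adds up to 1000000 in each library. The study compared 4 groups of CT26 cultures with 3 biological replicates each, 12 libraries in all. The No treatment group received neither agent, the CX3CL1 group received the chemokine CX3CL1, which signals through the receptor CX3CR1, the IFN-γ group received the cytokine interferon gamma, and the CX3CL1+IFN-γ group received both. Per the methods and a figure legend, CX3CL1 was given at 2 µg/ml and IFN-γ at 100 ng/ml, for 8 hours. All groups are 1 tumor line grown alone, so no host cells share the dish, and only RNA was measured.

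Each collagen molecule is a helix of chains made from 1 or more genes, and families differ in what they assemble into. The fibrillar collagens, such as collagen I (COL1A1 and COL1A2), form the load-bearing fibers of connective tissue. Collagen IV and the laminins form the sheets of the basement membrane on which epithelial cells rest and which carcinoma cells cross when they invade. A laminin molecule joins an alpha, a beta and a gamma chain, each from a gene of its own, and integrins on the cell surface bind it.

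The treatments can be followed in response genes of other pathways. CXCL1 averaged 4.96 TPM without treatment, 440 with CX3CL1, 55.0 with IFN-γ and 1090 with both, and IRF1 averaged 19.6, 28.9, 107 and 90.2 TPM in the same order. Of 9 epithelial markers, EPCAM and CLDN7 were listed at 0 in every library. KRT18 averaged 45.3, 29.6, 27.5 and 21.5 TPM and KRT20 12.8, 8.41, 11.7 and 7.24 TPM in the same order. The summed level of the 9 ran from 51.2 to 64.7 TPM without treatment, 33.6 to 44.4 with CX3CL1, 35.7 to 41.8 with IFN-γ and 24.9 to 33.2 with both. Summed levels of 7 fibroblast markers lay between 8.15 and 18.3 TPM in all libraries, mostly from PDGFRA and PDGFRB, with THY1 and LUM at 0.0333 TPM or less. Of the 6 leukocyte markers, CD3E was at 0 throughout and the sums reached at most 1.94 TPM, and the 4 endothelial markers summed to at most 0.0725 TPM. CT26 thus carried few of the 9 epithelial markers, mostly KRT18 and KRT20. The epithelial sum was lower in every treated library than in every untreated library, a shift whose part in the results below was not tested. Replicate 1 had the highest summed collagen and laminin level in each group, and results without the 4 libraries of replicate 1 are given where calls changed. That fit has 2 libraries per group, and whether calls were lost to fewer libraries or to replicate 1 was not tested. CX3CL1 replicate 2 correlated least with its group, at 0.984 and 0.987 against 0.994 between CX3CL1 replicates 1 and 3.

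One fibrillar chain dominated the family. COL1A2, the second chain of collagen I, averaged 609 TPM over the 12 libraries and ranked 237 among all 23636 symbols. In No treatment replicates 1, 2 and 3 it made up 49.4%, 49.5% and 47.0% of the summed level of all 55 members. The next by mean level were the basement membrane genes COL4A1 (119 TPM), LAMB1 (114) and LAMC1 (111), followed by COL8A1 (106), COL4A2 (70.6), COL1A1 (49.7), LAMA5 (42.8), COL5A1 (42.0), COL16A1 (27.4), COL4A5 (20.9) and COL18A1 (19.1). These 12 genes held between 95.7% and 96.4% of the summed level in each library. Lower members included LAMB2 (14 TPM), COL6A1 (8.41), COL3A1 (5.02), LAMA3 (1.91), COL7A1 (1.33), LAMA2 (1.05), LAMB3 (0.963), COL20A1 (0.864), COL9A3 (0.544), COL5A3 (0.394) and COL11A2 (0.372). COL5A3 and COL11A2 lie just above the limit of 0.2 TPM, and COL14A1 (0.170) and COL5A2 (0.153) just below it.

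**Figure D1:**
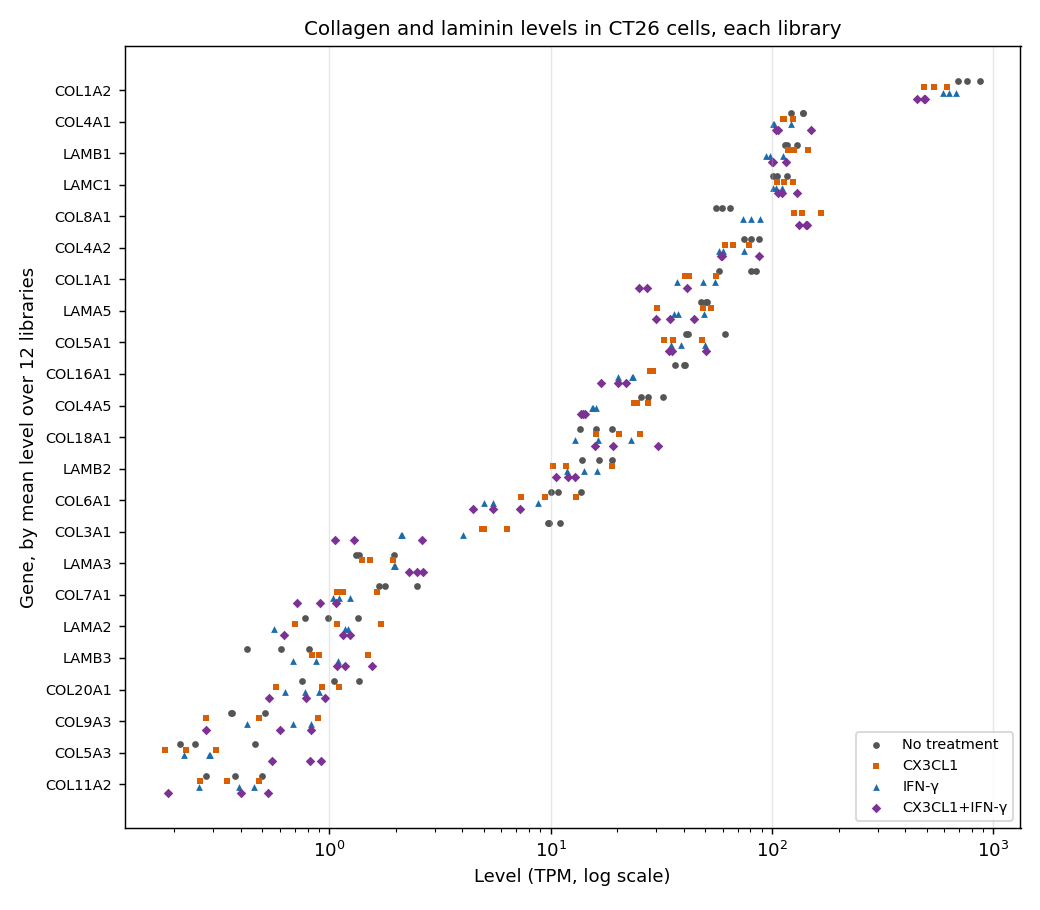
Level in TPM (horizontal, log scale) of 23 members whose mean reached 0.2 TPM (vertical, ordered by mean), with 1 point per library and color and shape for the group. COL1A2 stands alone at 452 to 869 TPM, the CX3CL1 and IFN-γ libraries of COL8A1 lie above its untreated ones, and all treated libraries of COL3A1 lie below its untreated ones.

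The remaining 31 members were under 0.2 TPM, and 8 of them (COL4A6, COL6A6, COL9A1, COL11A1, COL13A1, COL26A1, LAMA1 and LAMA4) were listed at 0 in every library. Several known partners of well expressed chains were among these 31. COL6A1 averaged 8.41 TPM while COL6A2 and COL6A3, the usual partners of its chain in collagen VI, averaged 0.0320 and 0.0704 TPM. COL5A1 averaged 42.0 TPM while COL5A2, with which its chain forms collagen V, averaged 0.153 TPM. COL4A5, at 20.9 TPM, had its neighbour and partner COL4A6 at 0. Of the laminin alpha chains, LAMA5 was the highest at 42.8 TPM, with LAMA1 and LAMA4 at 0, LAMA2 at 1.05 and LAMA3 at 1.91 TPM. An exact 0 in such a table can also be a failed estimate.

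COL8A1 encodes a chain of collagen VIII, a short-chain network collagen known from vessel walls and the corneal endothelium's basement membrane. It lies on the minus strand of chromosome 16, from 57624258 to 57754737 (GRCm38, GENCODE vM21). In No treatment replicates 1 to 3 its level was 64.9, 59.7 and 56.1 TPM, and with CX3CL1 it was 137, 167 and 125 TPM. IFN-γ alone gave 74.2, 80.5 and 88.6 TPM, and both agents gave 133, 143 and 142 TPM. The libraries thus fell into an order without overlap between untreated, IFN-γ and CX3CL1-treated cells, while the ranges of the CX3CL1 and CX3CL1+IFN-γ groups overlapped. In bulk RNA, more transcript per cell and more cells of a kind that make it cannot be told apart.

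Differences were tested with limma on log2(TPM + 1), a scale that understates the change of low genes, over the 11878 symbols with a mean of at least 0.2 TPM, and a gene was called at a Benjamini-Hochberg adjusted p under 0.05. For a single gene, an exact two-sided permutation test of 3 against 3 libraries cannot go below 0.1. COL8A1 rose with CX3CL1 by 1.23 on the log2 scale (SE 0.11, limma adjusted p = 0.000128), a mean level 2.38 times that of untreated cells. On top of IFN-γ, CX3CL1 raised it by 0.78 (SE 0.11, adjusted p = 0.00923), 1.72 times on the TPM scale. IFN-γ alone raised it by 0.42 (SE 0.11, adjusted p = 0.0384), 1.35 times, and IFN-γ added to CX3CL1 gave a log2 difference of -0.03 (SE 0.11, adjusted p = 0.929). The interaction, the CX3CL1 effect with IFN-γ minus that without, was -0.45 (SE 0.16, unadjusted p = 0.0149) and was not called after adjustment. The CX3CL1 effect without IFN-γ was called in every alternative fit, with a highest adjusted p of 0.0061 in replicates 2 and 3 only. The effect in the presence of IFN-γ missed the threshold without IFN-γ replicate 1 (adjusted p = 0.0536), IFN-γ replicate 2 (0.0622) or CX3CL1+IFN-γ replicate 3 (0.0689), and in replicates 2 and 3 only (0.231). The smaller effect of IFN-γ alone was lost without No treatment replicate 2 or 3 (adjusted p = 0.104 and 0.163) or without IFN-γ replicate 1, 2 or 3 (0.0504, 0.0944 and 0.169), with no filter on low values (0.054) and in replicates 2 and 3 only (0.0847).

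The bases just upstream of the annotated start are shown for COL8A1, the member that rose with CX3CL1, and for COL3A1 and COL4A5, which fell with IFN-γ (described below). They were taken from the RefSeq promoter table of GRCm38.p6, which held 40 of the 55 members and 19 of the 24 described, and are written 5′ to 3′ on the gene's strand, with matches to the searched motifs in capitals.
COL8A1, chr16:57754738-57754987, minus strand: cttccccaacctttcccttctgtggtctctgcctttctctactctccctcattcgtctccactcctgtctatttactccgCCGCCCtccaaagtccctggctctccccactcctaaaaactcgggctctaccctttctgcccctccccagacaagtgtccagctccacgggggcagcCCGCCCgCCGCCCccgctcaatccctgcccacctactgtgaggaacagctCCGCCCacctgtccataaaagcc
COL3A1, chr1:45311288-45311537, plus strand: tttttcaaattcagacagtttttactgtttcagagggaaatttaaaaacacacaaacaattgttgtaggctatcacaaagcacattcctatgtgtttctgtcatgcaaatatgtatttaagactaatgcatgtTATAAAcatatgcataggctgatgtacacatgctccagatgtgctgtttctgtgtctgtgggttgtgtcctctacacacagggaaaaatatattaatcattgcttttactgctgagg
COL4A5, chrX:141475169-141475384, plus strand: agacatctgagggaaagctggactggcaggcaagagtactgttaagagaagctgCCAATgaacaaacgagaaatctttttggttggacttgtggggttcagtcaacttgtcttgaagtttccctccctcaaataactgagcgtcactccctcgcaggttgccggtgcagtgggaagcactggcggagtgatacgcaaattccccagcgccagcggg
The motifs were searched on both strands in the 250 bases before each start. In the COL8A1 window the GC box GGGCGG, the letters bound by Sp-type factors, matched 4 times, all on the opposite strand (CCGCCC as printed), and no other motif matched. The COL3A1 window held 1 match to the TATA box TATAAA. The COL4A5 window held 1 match to CCAAT and 1 to the GC box, the latter among the 34 bases next to its start, which are not printed because the annotation places exon there. None of the 3 windows matched the gamma interferon activation site TTCNNNGAA, the AP-1 site TGANTCA or the NF-kB motif. Of 32851 windows in the table, 32.7% held GGGCGG, 33.8% CCAAT, 12.4% TATAAA, 7.02% TTCNNNGAA, 6.75% TGANTCA and 3.90% the NF-kB motif. A match here is a run of letters, not a site shown to be bound.

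Among the fibrillar collagens, collagen I and collagen III transcripts were lower in treated cells. COL1A2 (chromosome 6, 4504814 to 4541544, plus strand) was at 869, 764 and 694 TPM in No treatment replicates 1 to 3 and at 619, 539 and 484 TPM with CX3CL1. IFN-γ gave 678, 634 and 596 TPM, and both agents gave 484, 492 and 452 TPM. Every library with CX3CL1 lay below every library of the group it is compared with, and the untreated and IFN-γ libraries did not overlap either. COL1A2 fell with CX3CL1 by 0.50 on the log2 scale (SE 0.11, adjusted p = 0.0408), to 0.706 of the untreated mean. This call lay close to the threshold: it was lost without No treatment replicate 1 or 2 (adjusted p = 0.159 and 0.134), without CX3CL1 replicate 2 or 3 (0.0738 and 0.197), in a fit of only these 6 libraries (0.21), with no filter on low values (0.073), with quantile normalization (0.0874) and in replicates 2 and 3 only (0.111). With the replicate number as a block it was kept (limma adjusted p = 0.00348), though whether the numbers pair these libraries is not settled. Against IFN-γ the CX3CL1+IFN-γ group differed by -0.42 (SE 0.11, adjusted p = 0.328), and with the replicate number as a block COL1A2 fell (adjusted p = 0.0343). IFN-γ alone differed by -0.28 (SE 0.11, adjusted p = 0.168), and under the block it fell (adjusted p = 0.0305). The share of COL1A2 in the summed level of the family was 40.3%, 40.5% and 38.2% with CX3CL1 and 36.2%, 40.7% and 39.0% with both, against 47.3%, 48.6% and 47.6% with IFN-γ alone. These shares fell into separate ranges with and without CX3CL1.

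COL1A1, the first chain of collagen I, stood far below COL1A2 and was noisier. Its level was 80.1, 84.7 and 57.8 TPM without treatment and 55.7, 40.7 and 42.2 TPM with CX3CL1. IFN-γ gave 48.9, 55.1 and 37.5 TPM, and both agents gave 27.2, 41.2 and 25.1 TPM. Each single treatment lay below the untreated range, while the combined group overlapped each single treatment. The log2 differences were -0.67 for CX3CL1 (SE 0.21, adjusted p = 0.208) and -0.64 for IFN-γ (SE 0.21, adjusted p = 0.0873), neither called. CX3CL1 on top of IFN-γ gave -0.60 (SE 0.21, adjusted p = 0.72). With the replicate block, COL1A1 fell with IFN-γ (adjusted p = 0.0186) and with IFN-γ on top of CX3CL1 (log2 difference -0.57, adjusted p = 0.0382 against 0.160 without the block). The block also called it lower with CX3CL1 alone (limma adjusted p = 0.0408), where the pairing of libraries is not settled. The ratio of COL1A1 to COL1A2 within a library averaged 0.0954 ± 0.0140 (SD, n = 3) without treatment, 0.0842 ± 0.00775 with CX3CL1, 0.0740 ± 0.0121 with IFN-γ and 0.0651 ± 0.0161 with both. Libraries of neighbouring groups overlapped in this ratio, and no test was made of it.

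COL3A1, which encodes the chain of collagen III, a fibril partner of collagen I, had the largest relative fall of the 24 members. It lies on chromosome 1, from 45311538 to 45349706 on the plus strand. Its level was 11.1, 9.82 and 9.76 TPM without treatment, 4.89, 6.36 and 5.02 with CX3CL1, 2.12, 4.03 and 2.13 with IFN-γ, and 1.06, 2.63 and 1.30 with both. The untreated libraries were the highest and did not overlap with any other, and IFN-γ libraries lay below those of CX3CL1. COL3A1 fell with IFN-γ by 1.61 on the log2 scale (SE 0.22, adjusted p = 0.000391), to 0.270 of the untreated mean level. IFN-γ on top of CX3CL1 lowered it by 1.31 (SE 0.22, adjusted p = 0.00413), to 0.307 of the CX3CL1 mean, a call lost in replicates 2 and 3 only (adjusted p = 0.0672). For CX3CL1 the difference was -0.81 (SE 0.22, adjusted p = 0.112) without IFN-γ and -0.50 (SE 0.22, adjusted p = 0.975) with it, neither called, and the first was called in a fit limited to those 6 libraries (adjusted p = 0.0226). The first was also called with the replicate block (limma adjusted p = 0.0175), where the pairing of libraries is not settled. The mean with both agents was 0.163 of the untreated mean. COL5A2, next to COL3A1 on chromosome 1, lay under the limit for testing, at 0.288, 0.316 and 0.280 TPM without treatment and at most 0.186 TPM in any treated library.

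**Figure D2:**
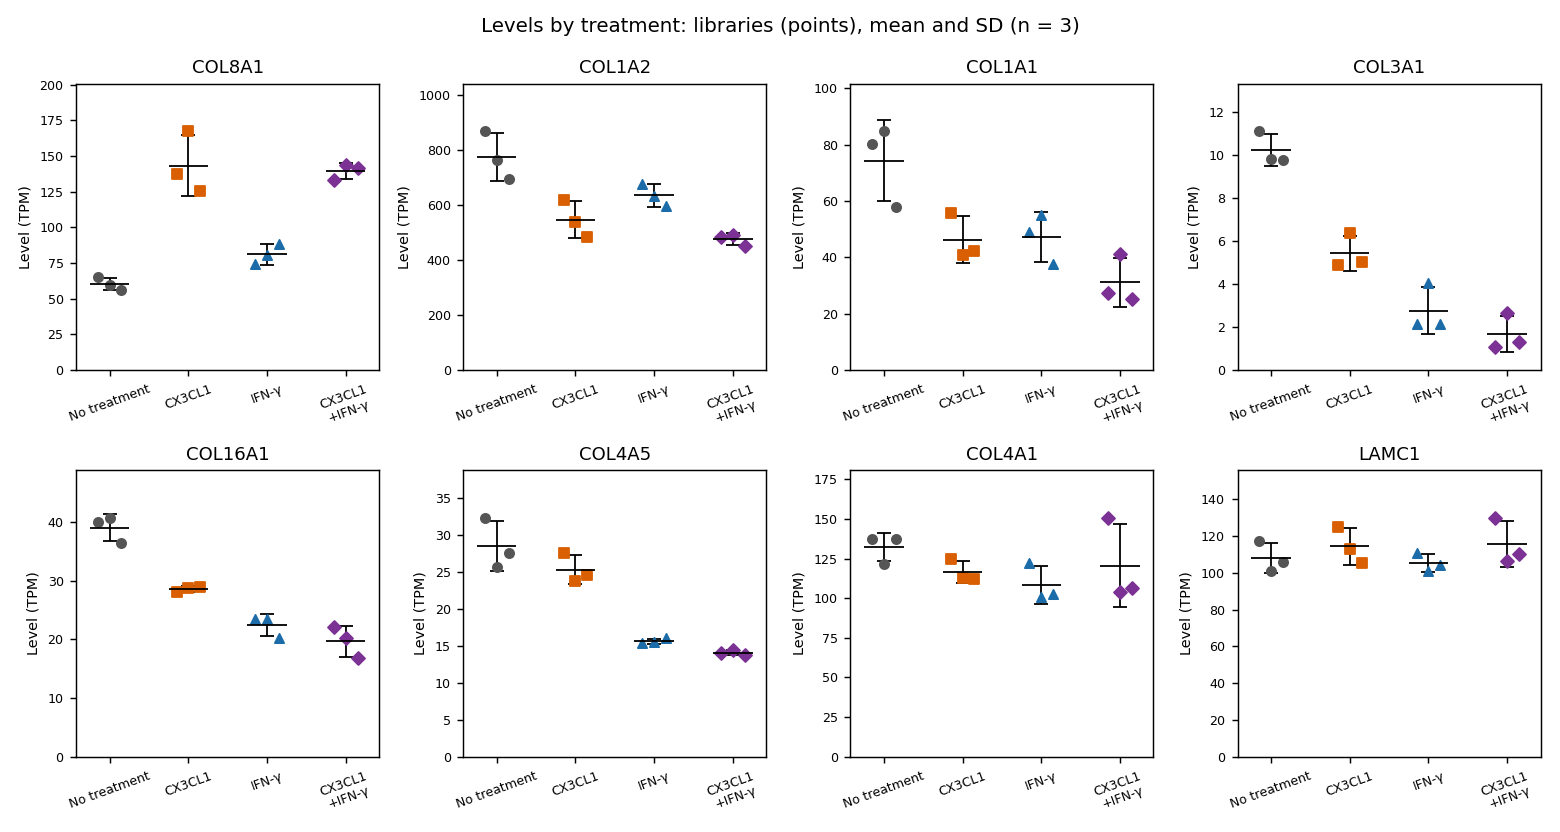
Levels of 8 members in TPM (vertical, from 0) by group (horizontal): each point is a library, replicates 1 to 3 from left to right, with the mean as a line and the SD as a bar (n = 3). COL8A1 is higher in the 6 libraries with CX3CL1, COL4A5 is lower in the 6 with IFN-γ, and COL3A1 is lower in every treated library, while COL4A1 and LAMC1 overlap between groups.

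The other fibrillar chains moved less or were low. COL5A1, which helps to start collagen I fibrils, was at 61.1, 41.0 and 41.6 TPM without treatment, 48.3, 32.5 and 35.7 with CX3CL1, 49.9, 38.8 and 34.9 with IFN-γ, and 50.5, 35.5 and 34.4 with both. In each group replicate 1 was the highest, the groups overlapped, and no comparison was called. COL5A3, another collagen V chain, was at 0.461, 0.248 and 0.211 TPM without treatment, 0.310, 0.182 and 0.225 with CX3CL1, 0.220, 0.289 and 0.286 with IFN-γ, and 0.822, 0.550 and 0.922 with both. Only the combined group stood above the others. It rose when IFN-γ was added to CX3CL1, by 0.51 on the log2 scale (SE 0.11, adjusted p = 0.02), and the same group differed from IFN-γ alone by 0.47 (SE 0.11, adjusted p = 0.16). The call was lost without CX3CL1 replicate 2 or 3 (adjusted p = 0.0507 and 0.0646), without CX3CL1+IFN-γ replicate 1 or 3 (0.0685 and 0.106), in a fit limited to those 6 libraries (0.0854) and in replicates 2 and 3 only (0.0901). Its interaction term was the one with the smallest p among the members (log2 0.55, SE 0.16, adjusted p = 0.574).

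COL16A1 and COL7A1 link collagen networks to their surroundings. COL16A1 encodes a fibril-associated collagen and lies on chromosome 4, from 130047840 to 130099283 on the plus strand. It was at 39.9, 40.6 and 36.3 TPM without treatment, 28.0, 28.8 and 29.0 with CX3CL1, 23.5, 23.4 and 20.2 with IFN-γ, and 22.0, 20.2 and 16.8 with both. Untreated, CX3CL1 and IFN-γ libraries fell into 3 separate ranges, and the combined group overlapped that of IFN-γ alone. COL16A1 fell with IFN-γ by 0.77 on the log2 scale (SE 0.11, adjusted p = 0.000551), to 0.574 of the untreated mean, in every alternative fit. IFN-γ on top of CX3CL1 lowered it by 0.52 (SE 0.11, adjusted p = 0.0161), a call lost without CX3CL1 replicate 3 (0.053), without CX3CL1+IFN-γ replicate 3 (0.089), in a fit limited to those 6 libraries (0.0971) or in replicates 2 and 3 only (0.0607). CX3CL1 alone differed by -0.43 (SE 0.11, adjusted p = 0.0804), which passed the threshold with quantile normalization (0.0412). It also passed with the replicate block (limma adjusted p = 0.0189), where the pairing of libraries is not settled. COL7A1, the chain of the anchoring fibrils below epithelia, was at 1.68, 1.79 and 2.49 TPM without treatment, 1.15, 1.08 and 1.65 with CX3CL1, 1.05, 1.11 and 1.24 with IFN-γ, and 1.08, 0.719 and 0.905 with both. All treated libraries lay below all untreated ones, by a narrow margin for CX3CL1 replicate 3. It fell with IFN-γ by 0.48 (SE 0.13, adjusted p = 0.0457), a call that held without No treatment replicate 1 (0.0466) and missed the threshold without No treatment replicate 2 or 3 (0.0769 and 0.198), without IFN-γ replicate 1, 2 or 3 (0.144, 0.113 and 0.098) and in replicates 2 and 3 only (0.132). It also missed it with a pseudocount of 0.1 (0.0654), with no filter (0.0577) and over genes of at least 1 TPM on average (0.073).

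In collagen IV, the chain COL4A5 parted from the main chains COL4A1 and COL4A2. COL4A5, whose chain is needed in the kidney's filtering membrane, lies on chromosome X, from 141475385 to 141689234 on the plus strand. It was at 32.3, 25.6 and 27.5 TPM without treatment and 27.6, 23.8 and 24.6 with CX3CL1, then 15.3, 15.5 and 16.0 with IFN-γ, and 14, 14.4 and 13.7 with both. The 6 libraries with IFN-γ were all below the 6 without it, and the combined group lay just below IFN-γ alone. COL4A5 fell with IFN-γ by 0.82 on the log2 scale (SE 0.10, adjusted p = 0.000218), and by 0.80 on top of CX3CL1 (SE 0.10, adjusted p = 0.00074). The means were 0.548 of the untreated level and 0.554 of the CX3CL1 level, and both calls held in every alternative fit. CX3CL1 gave differences of -0.16 (SE 0.10, adjusted p = 0.932) without IFN-γ and -0.15 (SE 0.10, adjusted p = 0.975) with it.

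COL4A1 and COL4A2, whose chains form the collagen IV of nearly all basement membranes, lie head to head on opposite strands of chromosome 8 with RefSeq starts 21 bases apart. The kit keeps strand, but whether counting used it is not stated, so reads where they overlap could be split between them. The same limit holds for other members that overlap a gene on the opposite strand. Among these are LAMB3 (with HSD11B1 and G0S2), COL18A1 (SLC19A1) and COL9A3 (TCFL5). COL4A1 was at 138, 122 and 138 TPM without treatment, 125, 113 and 112 with CX3CL1, 122, 101 and 102 with IFN-γ, and 151, 104 and 107 with both. COL4A2 was at 87.0, 74.7 and 80.2 TPM without treatment, 79.2, 61.1 and 66.5 with CX3CL1, 74.5, 60.2 and 57.5 with IFN-γ, and 87.5, 59.0 and 59.5 with both. Replicate 1 of the combined group passed the untreated range for both genes. Neither was called in any comparison without the block. With the block, COL4A2 fell with IFN-γ (log2 difference -0.33, adjusted p = 0.0288 against 0.241 without it). The ratio of COL4A1 to COL4A2 stayed between 1.57 and 1.85 in the 12 libraries. The ratio of COL4A5 to COL4A1, chosen after its values were seen, was 0.234, 0.211 and 0.20 without treatment, 0.221, 0.211 and 0.219 with CX3CL1, 0.125, 0.154 and 0.156 with IFN-γ, and 0.0929, 0.138 and 0.129 with both.

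**Figure D3:**
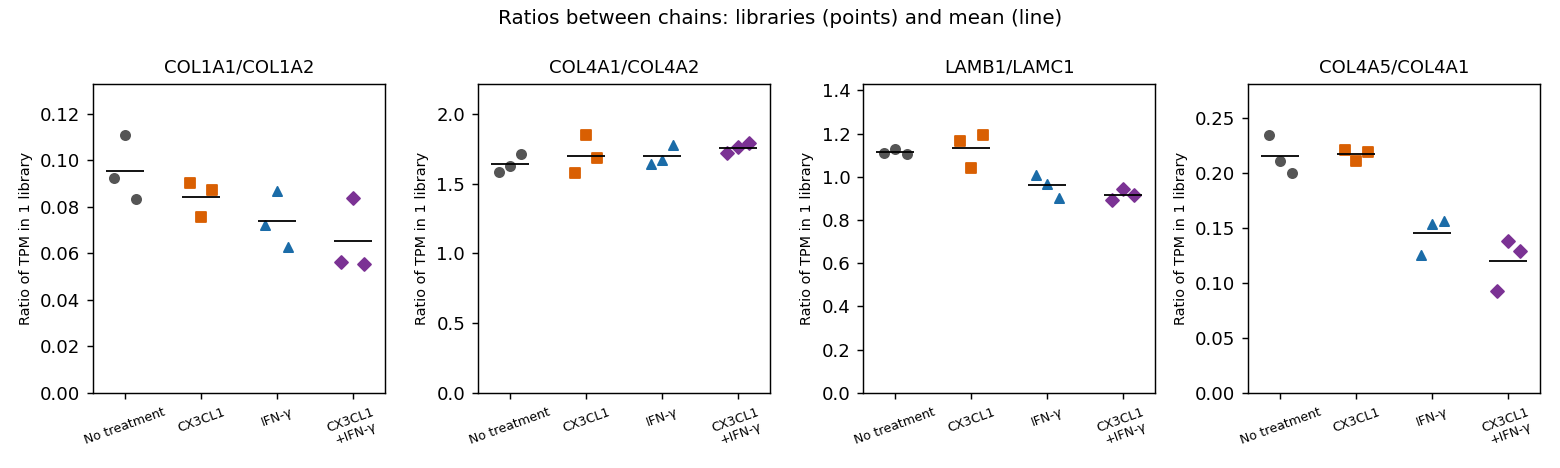
Ratio of TPM between 2 chains in each library (vertical, from 0) by group (horizontal), with the group mean as a line and replicates 1 to 3 from left to right. COL4A1/COL4A2 lies between 1.57 and 1.85 throughout, COL4A5/COL4A1 and LAMB1/LAMC1 are lower in all libraries with IFN-γ than in all without it, and COL1A1/COL1A2 overlaps between neighbouring groups.

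As deposited and without the block, none of the remaining collagens was called. COL6A1, the first chain of the beaded filament collagen VI, was at 13.7, 10.1 and 10.8 TPM without treatment, 13.0, 9.42 and 7.37 with CX3CL1, 8.74, 5.49 and 4.98 with IFN-γ, and 7.30, 5.52 and 4.45 with both. The libraries with IFN-γ did not overlap with those of the matching group without it, by a narrow margin on top of CX3CL1. The log2 differences for IFN-γ were -0.78 (SE 0.23, adjusted p = 0.057) and, on top of CX3CL1, -0.68 (SE 0.23, adjusted p = 0.124). Under the block COL6A1 fell in both (adjusted p = 0.000412 and 0.00167), and with quantile normalization it was called lower in both as well. COL18A1, the source of the fragment endostatin, was at 19.0, 13.6 and 16.1 TPM without treatment, 25.4, 16.1 and 20.4 with CX3CL1, 23.1, 12.9 and 16.4 with IFN-γ, and 30.6, 15.9 and 19.1 with both. Its groups overlapped, with replicate 1 the highest in each. COL20A1, COL9A3 and COL11A2 stayed between 0.188 and 1.36 TPM with no call.

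Among the laminins, no level passed the test without the block. LAMC1, the gamma chain of most laminins, was at 117, 101 and 106 TPM without treatment, 125, 113 and 105 with CX3CL1, 111, 101 and 105 with IFN-γ, and 130, 106 and 111 with both. Its largest log2 difference in the 4 comparisons was 0.12 (SE 0.10), for CX3CL1 on top of IFN-γ. LAMB1, the beta chain that pairs with it, was at 130, 114 and 117 TPM without treatment, 146, 118 and 126 with CX3CL1, 112, 98.1 and 94.5 with IFN-γ, and 116, 100 and 101 with both. Each IFN-γ group lay below its matching group without IFN-γ. The log2 differences were -0.25 for IFN-γ (SE 0.11, adjusted p = 0.202) and -0.29 on top of CX3CL1 (SE 0.11, adjusted p = 0.173), and under the block LAMB1 fell in both (adjusted p = 0.0285 and 0.0188). The ratio of LAMB1 to LAMC1 was 1.11, 1.13 and 1.11 without treatment, 1.16, 1.04 and 1.19 with CX3CL1, 1.01, 0.968 and 0.903 with IFN-γ, and 0.893, 0.943 and 0.916 with both. The 6 ratios with IFN-γ were all below the 6 without it, a description with no test.

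Of the alpha chains, LAMA5, the alpha chain of most adult basement membranes, was at 50.9, 47.9 and 50.2 TPM without treatment, 53.2, 30.3 and 48.9 with CX3CL1, 49.6, 36.0 and 37.8 with IFN-γ, and 44.5, 29.9 and 34.8 with both. The untreated libraries were close together, CX3CL1 replicate 2 stood well below the other CX3CL1 libraries, and no comparison was called. LAMA3, an alpha chain of epithelial laminin, was at 1.96, 1.37 and 1.33 TPM without treatment, 1.94, 1.52 and 1.41 with CX3CL1, 1.96, 1.98 and 1.97 with IFN-γ, and 2.66, 2.29 and 2.50 with both. Its combined group was the highest, and IFN-γ alone lay only just above the highest untreated library. The log2 difference for IFN-γ on top of CX3CL1 was 0.41 (SE 0.12, adjusted p = 0.0749), and under the block LAMA3 rose (adjusted p = 0.0169). LAMB3, a beta chain found with it in epithelia, was at 0.811, 0.604 and 0.427 TPM without treatment, 1.49, 0.837 and 0.90 with CX3CL1, 0.872, 1.10 and 0.688 with IFN-γ, and 1.18, 1.56 and 1.08 with both. All CX3CL1 libraries lay above all untreated ones, at 1.75 times the mean level, a log2 difference of 0.36 (SE 0.15, adjusted p = 0.491). LAMB2 ran from 10.3 to 19.0 TPM and LAMA2 from 0.564 to 1.72 TPM, with overlapping groups in each of the 4 comparisons.

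Counted over the family, CX3CL1 alone gave 1 call in each direction, and calls with IFN-γ were mostly downward. In CX3CL1 against no treatment 1 of the 24 members rose (COL8A1) and 1 fell (COL1A2), where 1.78% of all genes tested rose and 0.168% fell. In CX3CL1+IFN-γ against IFN-γ, COL8A1 alone rose, beside a background of 0.345% higher and 0.0168% lower. In IFN-γ against no treatment 1 rose (COL8A1) and 4 fell (COL16A1, COL4A5, COL3A1 and COL7A1), while 5.91% of genes tested rose and 1.94% fell. In CX3CL1+IFN-γ against CX3CL1, 1 rose (COL5A3) and 3 fell (COL16A1, COL4A5 and COL3A1), against 3.76% and 0.935%. So 4 of 24 members fell with IFN-γ where the background share was 1.94%, and the single members that rose came in comparisons where higher calls outnumbered lower ones. That split of all calls depended on scaling: IFN-γ gave 702 higher and 230 lower genes as deposited, 647 and 347 after median-ratio scaling and 556 and 536 after quantile normalization, and on top of CX3CL1 the counts were 447 and 111, 374 and 176, and 349 and 228. The called falls of COL3A1, COL4A5 and COL16A1 with IFN-γ held under both scalings.

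With the replicate number as a block, more members were called in the 3 comparisons whose libraries of the same number deviated together. The block was 1 fit of all 12 libraries. Its calls therefore rest also on CX3CL1 and no treatment, whose pairing is not settled. IFN-γ against no treatment then had 1 higher and 9 lower, adding COL1A2, LAMB1, COL4A2, COL1A1 and COL6A1, where the background was 11.4% higher and 4.85% lower. IFN-γ on top of CX3CL1 had 2 higher and 6 lower, against 8.71% and 2.81%. CX3CL1 on top of IFN-γ had 1 higher and 1 lower, against 0.749% and 0.0505%. No laminin was called in any comparison without the block, at 8 laminins tested, with 1, 1, 0 and 2 of them at an unadjusted limma p under 0.05 in CX3CL1, IFN-γ, CX3CL1 on top of IFN-γ, and IFN-γ on top of CX3CL1. Of the 16 collagens 6, 8, 5 and 6 were under it in the same order, and of all 24 members 7, 9, 5 and 8. Of the 11878 genes tested, 958, 2611, 517 and 2103 were under it in the same order. For the interaction limma called 0 of 24 members and 0.0% of all genes, with 2 members (COL8A1 and COL5A3) and 273 genes at an unadjusted p under 0.05.

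**Figure D4:**
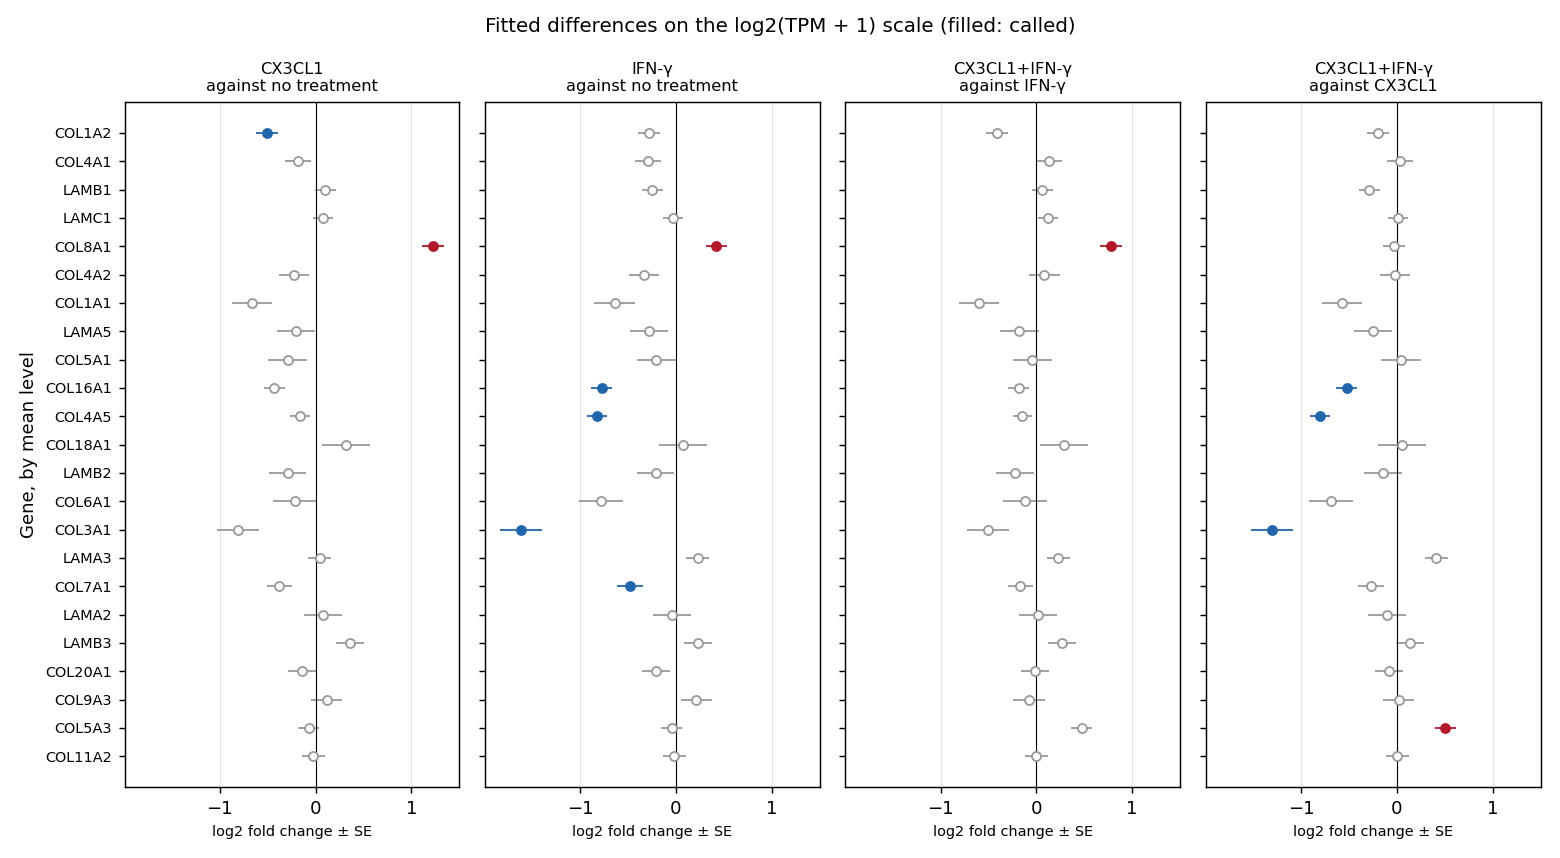
Fitted log2 fold change on the log2(TPM + 1) scale with its standard error (horizontal) for 23 members (vertical, by mean level) in 4 comparisons. Filled points are called at an adjusted p under 0.05, red for higher and blue for lower: COL8A1 rises with CX3CL1, and COL16A1, COL4A5 and COL3A1 fall in both comparisons that add IFN-γ.

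The median log2 difference of the 24 members was -0.15 with CX3CL1 (all genes tested -0.02), -0.21 with IFN-γ (all genes 0.03), -0.01 for CX3CL1 on top of IFN-γ (all genes -0.003) and -0.06 for IFN-γ on top of CX3CL1 (all genes 0.04). By kind, the 16 collagens had medians of -0.20 and -0.29 for the single treatments, and the 8 laminins 0.08 and -0.04. The 2 comparisons with untreated cells share those 3 libraries. Summed over all 55 members, the level was 1760, 1545 and 1476 TPM without treatment, 1534, 1331 and 1267 with CX3CL1, 1434, 1305 and 1251 with IFN-γ, and 1340, 1208 and 1160 with both. Replicate 1 was the highest in each group, and untreated libraries overlapped with those of CX3CL1 while lying above those of IFN-γ and of both. Without COL1A2 the sums averaged 818 ± 63.4, 830 ± 74.1, 694 ± 54.7 and 760 ± 83.0 TPM (SD, n = 3) in the same order. Laminins alone summed to 312 ± 23.3, 322 ± 39.8, 283 ± 22.5 and 293 ± 29.7 TPM (SD, n = 3).

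Genes that fold, process and bind collagen were listed with earlier results known and give the surroundings of these changes. Of 43 such genes tested in 4 lists, none was called in CX3CL1 against no treatment or in CX3CL1+IFN-γ against IFN-γ. At an unadjusted limma p under 0.05 there were 10 and 7 of the 43, and 958 and 517 of the 11878 genes tested. IFN-γ raised 2 and lowered 4, where 5.91% of all genes tested rose and 1.94% fell. In CX3CL1 against no treatment, whose pairing is not settled, the block raised AGRN and lowered P3H4 and ITGA3. There 347 of all genes tested rose and 108 fell. Under the block, CX3CL1 on top of IFN-γ raised 2 of the 43 (DCN and THBS1), where 0.749% of all genes tested rose. IFN-γ raised 7 and lowered 8 under the block, against 11.4% and 4.85% of all genes. IFN-γ on top of CX3CL1 raised 6 and lowered 2 under the block, against 8.71% and 2.81%, and raised 2 (BGN and DCN) and lowered none without it, against 3.76% and 0.935%.

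Collagen maturation takes place in the endoplasmic reticulum. The chaperone SERPINH1, the highest of its 16 tested genes, averaged 880, 890, 926 and 844 TPM in untreated, CX3CL1, IFN-γ and combined cells, with no call. The lysyl hydroxylase PLOD3 was at 131, 131 and 112 TPM without treatment and 224, 166 and 173 with IFN-γ, and rose by 0.58 on the log2 scale (SE 0.13, adjusted p = 0.0188). P3H4, which works with lysyl hydroxylation, was at 38.1, 44.2 and 36.9 TPM without treatment and 27.8, 31.7 and 23.1 with IFN-γ, and fell by 0.52 (SE 0.14, adjusted p = 0.0424). Both separated the untreated and IFN-γ libraries without overlap. With CX3CL1, P3H4 was at 29.9, 28.2 and 28.6 TPM, also below the untreated libraries. It was not called there without the block and was called lower with it. In processing and cross-linking none of 7 tested genes was called without the block. The highest, PCOLCE, an enhancer of propeptide cleavage, was at 819, 833 and 813 TPM without treatment, 703, 525 and 682 with CX3CL1, 648, 728 and 636 with IFN-γ, and 492, 586 and 534 with both. Every treated library lay below every untreated one, with log2 differences of -0.38 for CX3CL1 (SE 0.12, adjusted p = 0.208) and -0.30 for IFN-γ (SE 0.12, adjusted p = 0.168). The cross-linking enzyme LOX was at most 0.0254 TPM, while its relative LOXL4 averaged 64.2 TPM in untreated cells.

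Matrix partners moved in both directions. SPARC, a collagen-binding glycoprotein, was at 295, 254 and 278 TPM without treatment and 184, 207 and 178 with IFN-γ, and fell by 0.54 on the log2 scale (SE 0.12, adjusted p = 0.0135). AGRN, a basement membrane proteoglycan that binds laminin, was at 18.4, 13.3 and 14.6 TPM without treatment and 29.1, 25.8 and 28.1 with IFN-γ, and rose by 0.81 (SE 0.16, adjusted p = 0.0061). In both genes the IFN-γ libraries were apart from the untreated ones. With CX3CL1, SPARC was at 211, 239 and 193 TPM and AGRN at 25.3, 16.7 and 24.2 TPM, neither called without the block. The small proteoglycans BGN and DCN rose when IFN-γ was added to CX3CL1, BGN from 2.45, 1.74 and 1.65 to 8.24, 3.76 and 4.90 TPM (log2 1.12, SE 0.23, adjusted p = 0.013) and DCN from 0.759, 0.488 and 0.190 to 2.00, 1.83 and 1.63 TPM (log2 0.95, SE 0.15, adjusted p = 0.0025). DCN is also among the 7 fibroblast markers and was the only one called without the block. With it, IFN-γ raised PDGFRA (limma adjusted p = 0.0394) and DCN and lowered PDGFRB (adjusted p = 0.000805). IFN-γ on top of CX3CL1 raised PDGFRA (adjusted p = 0.0174) and DCN under it. The block also called PDGFRB lower in CX3CL1 against no treatment, whose pairing is not settled, and DCN higher for CX3CL1 on top of IFN-γ. The part of these markers in the changes of collagens and laminins was not tested. Among 11 tested receptors, ITGA3, an integrin chain that binds laminin, averaged 48.7 TPM without treatment and 38.5 with IFN-γ and fell by 0.33 (SE 0.09, adjusted p = 0.0456). With CX3CL1 it averaged 37.1 TPM, not called without the block and called lower with it. MRC2, a receptor that takes up collagen, averaged 3.12 TPM without treatment and 2.16 with IFN-γ and fell by 0.38 (SE 0.11, adjusted p = 0.0481). The highest receptor, ITGB1, averaged 456 TPM without treatment and 350 with IFN-γ (log2 difference -0.38, adjusted p = 0.121), and fell under the block (adjusted p = 0.0498). KRT18, of the epithelial markers, fell with IFN-γ too, from 34.1, 48.3 and 53.6 to 27.2, 29.5 and 25.9 TPM (log2 change -0.68, SE 0.18, adjusted p = 0.0346). KRT20 averaged 12.8 TPM without treatment and 11.7 with IFN-γ and was not called. Under the block KRT20 was called lower with CX3CL1 on top of IFN-γ. The block also called it lower in CX3CL1 against no treatment, whose pairing is not settled.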

How the data were processed

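RNA was sequenced from 12 libraries of CT26 cells, 3 biological replicates in each of 4 groups given by the labels. Libraries were strand-specific, and the authors aligned reads to mm10 with STAR 2.7.3a in the VIPER pipeline and tested genes with DESeq2 1.22.1, per the methods and the submitters' processing notes. The deposited values are TPM by symbol, which the authors scaled to 1000000 per library. How TPM were made, the gene annotation and whether counting used strand are not given in the sources used here. TPM carry no read depth, so the depth is unknown and no counting error was computed, and precision rests on the spread of 3 replicates. A rise in abundant transcripts lowers the TPM of others. Of the symbols, 26 had been turned into dates and are no members.

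The TPM were analysed in R 4.3.3 with limma 3.58.1 (lmFit, eBayes with trend) on log2(TPM + 1), over the 11878 genes whose mean reached 0.2 TPM, with all 12 libraries in the fit, with Benjamini-Hochberg adjustment within each comparison and a threshold of 0.05. Python 3.11.15 with pandas 2.3.3 and numpy 2.4.6 prepared the tables. The fit was tried on simulated data with independent noise in each library and larger changes than most seen here. It therefore does not bear on the calls of these members. The members, gene lists and marker lists were chosen with earlier results of these data known. Values in every library were given for the 12 highest members, those called, and those whose groups did not overlap, in the same direction, in both comparisons of an agent. Of the 24 members described, 1 enters the counts, medians and sums but is not reported here on its own. From the lists of genes that fold, process and bind collagen, those called without the block were named, with some of the highest by level. Not all genes called only under the block were named. A few markers were named too.

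Libraries sharing a replicate number in the labels deviated together from their group means in IFN-γ and no treatment (correlations across genes 0.429, 0.460 and 0.220), in CX3CL1+IFN-γ and IFN-γ (0.630, 0.635 and 0.649) and in CX3CL1+IFN-γ and CX3CL1 (0.351, 0.353 and 0.428). The labels do not say what a number shares, so the pairing rests on these correlations. For CX3CL1 and no treatment they were 0.387, 0.005 and 0.301, and the numbers were not taken to pair those libraries. For CX3CL1 and IFN-γ they were 0.584, 0.361 and 0.226, so whether the numbers pair CX3CL1 and no treatment is not settled.

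Alternative fits used the replicate number as a block, left out each library in turn, kept only the compared libraries, scaled by median ratios or by quantiles, added 0.1 in place of 1, and filtered at a mean of 1 TPM or not at all. A fit of replicates 2 and 3 only was added after seeing the data. Where a library is left out the group has 2 libraries, and the spread is shared with the other groups. Gene positions came from GENCODE vM21 on GRCm38, matched for 55 of 55 members, and promoter sequences from RefSeq on GRCm38.p6.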

Additional observations from a re-analysis of the deposited data

How the results depend on the processing

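The count of called members moved by over 1.5 times in these fits. In CX3CL1 against no treatment (2 called) it was 1 with no filter, 1 in replicates 2 and 3 only, 5 with the replicate block, which added COL1A1, COL16A1 and COL3A1, all lower, and 1 to 2 when 1 library was left out. The numbers 1 to 3 were not taken to pair these libraries: 2 of 3 correlated best with their own number. Whether they pair is not settled. In IFN-γ against no treatment (5 called) it was 10 with the replicate block and 3 to 5 with 1 library left out. With no filter it was 5, with COL5A2 and COL6A3 in place of COL8A1 and COL7A1. COL5A2 was lower (mean 0.295 TPM without treatment, 0.117 with IFN-γ) and COL6A3 higher (0.0387 and 0.130), both under the limit of 0.2 TPM over all libraries. In replicates 2 and 3 only it was 4, with COL6A1 in place of COL8A1 and COL7A1. COL6A1 was also called lower under both scalings and in a fit of the compared libraries, which added COL1A1 too. In CX3CL1+IFN-γ against IFN-γ (1 called) it was 2 with the block, 0 in replicates 2 and 3 only, where 374 of all genes had an unadjusted limma p under 0.05, and 0 to 1 with 1 library left out. In CX3CL1+IFN-γ against CX3CL1 (4 called) it was 2 in a fit of only the libraries compared, 8 with the block, 1 in replicates 2 and 3 only, and 2 to 5 with 1 library left out. The interaction stayed at 0 members in every alternative fit. Over all genes it had 52 calls with the block, 1 with quantile normalization, 11 without No treatment replicate 1 and 1 without CX3CL1+IFN-γ replicate 2. Without CX3CL1 replicate 2 it had 0 calls, with 1282 genes at an unadjusted limma p under 0.05 against 273 in the main fit.

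For the 7 members called in any comparison, 28 log2 fold changes were recomputed. The sign turned for differences near 0 that were never called: COL8A1 for IFN-γ on top of CX3CL1, which ran from -0.12 to 0.087 with 1 library left out, and COL5A3 for CX3CL1 (-0.13 to 0.0095) and for IFN-γ (-0.095 to 0.040, and 0.066 in replicates 2 and 3 only). Calls of COL8A1 with CX3CL1, and of COL16A1, COL4A5 and COL3A1 with IFN-γ, were kept in all 14 alternatives, as was COL4A5 for IFN-γ on top of CX3CL1. The cause of the other changes was not tested. Summed levels moved by less than 1 SD under median-ratio scaling and with 1 library left out. COL5A3, COL7A1 and other members near 1 TPM are most affected by the pseudocount: with 0.1, COL5A3 rose by 1.34 rather than 0.51 for IFN-γ on top of CX3CL1, and COL7A1 with IFN-γ missed the threshold (adjusted p = 0.0654).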
